A study of Mus musculus with 36 samples.

Results

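Of the 22 transfer RNA genes of the mouse mitochondrial genome (mtDNA), 8 lie on the plus strand of the reference downstream of mt-Co1, and their counts were examined in sperm, morula, round spermatids, liver, eWAT and gastrocnemius. The members, defined by position (chromosome MT, plus strand, start above 6000), were mt-Td, mt-Tk, mt-Tg, mt-Tr, mt-Th, mt-Ts2, mt-Tl2 and mt-Tt, out of 37 genes on MT and 51912 to 55487 genes in a table. All 36 libraries are labelled C57BL/6 wildtype, and the methods name C57BL/6N mice. Cauda spermatozoa, purified by swim-up, came from males fed a High Fat Diet (HFD) or a Low Fat Diet (LFD) for 2 weeks from 6 weeks of age, with 3 libraries a diet. Morula, the compact ball of blastomeres that precedes the blastocyst, was made by in vitro fertilization and had 3 libraries a diet of the father. Round spermatids, taken on a density gradient from testes of males on either diet, had 6 libraries. Liver, epididymal white adipose tissue (eWAT) and the gastrocnemius muscle, 6 libraries each, came from sons of HFD fathers, called tolerant (HFDt) or intolerant (HFDi) after a glucose test. In the tables of the last 4 tissues the columns could not be tied to a diet or an offspring class, so each tissue was used as a single group of 6 that mixes both. The description of 3 morula samples names the other diet than their title and treatment, and the title and treatment were followed.

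Mitochondrial transfer RNAs (mt-tRNAs) carry amino acids to the mitochondrial ribosome. They are transcribed inside long precursors that span most of a strand, and they lie between the mRNAs and rRNAs like punctuation: excision at the 5′ end by mitochondrial RNase P and at the 3′ end by the RNase Z enzyme ELAC2 frees both the tRNA and its neighbours. CCA is then added by TRNT1, and aminoacyl-tRNA synthetases charge the mt-tRNAs. A count on such a gene in a library of longer RNA can come from the tRNA or from an uncut precursor, and these could not be told apart here.

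The members were 59 to 71 bases long, with a GC content of 17.1 to 34.3% (median 31.2%) against 27.5 to 44.9% (median 36.5%) in the other 14 mt-tRNA genes. Each abuts its neighbours within 3 bases. Their Ensembl identifiers are, in genome order, ENSMUSG00000064353, ENSMUSG00000064355, ENSMUSG00000064359, ENSMUSG00000064361, ENSMUSG00000064364, ENSMUSG00000064365, ENSMUSG00000064366 and ENSMUSG00000064371. The sequences of 6 members on which the results turn are shown, from the GENCODE M21 transcripts of GRCm38, plus strand, with the anticodon in capitals (a triplet that a script placed in a loop closed by a stem). mt-Td (MT:6942-7011, aspartate, between mt-Ts1 and mt-Co2) is at 0 in nearly all libraries and has the lowest GC content, 17.1%. mt-Tr (MT:9808-9875, arginine, between mt-Nd3 and mt-Nd4l) had the steadiest level in morula. mt-Th (MT:11546-11612, histidine), mt-Ts2 (MT:11613-11671, serine) and mt-Tl2 (MT:11671-11741, leucine) form an unbroken run between mt-Nd4 and mt-Nd5, the latter pair sharing 1 base. mt-Tt (MT:15289-15355, threonine) lies between mt-Cytb and the minus-strand mt-Tp.
mt-Td: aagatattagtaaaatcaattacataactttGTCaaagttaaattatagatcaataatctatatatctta
mt-Tr: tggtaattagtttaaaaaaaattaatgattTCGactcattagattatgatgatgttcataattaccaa
mt-Th: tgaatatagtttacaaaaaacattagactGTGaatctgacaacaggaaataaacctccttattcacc
mt-Ts2: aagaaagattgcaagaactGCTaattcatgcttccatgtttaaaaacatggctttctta
mt-Tl2: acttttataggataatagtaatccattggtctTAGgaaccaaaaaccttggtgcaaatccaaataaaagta
mt-Tt: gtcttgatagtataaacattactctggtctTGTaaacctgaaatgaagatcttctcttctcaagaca
The 2 members not shown are mt-Tk (MT:7700-7764, lysine, between mt-Co2 and mt-Atp8) and mt-Tg (MT:9391-9458, glycine, between mt-Co3 and mt-Nd3). mt-Ts2 is the shortest member, 59 bases, and encodes the serine tRNA known to lack the D arm.

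Libraries held 2560219 to 4062321 counts in sperm, 11471251 to 12153141 in morula, 20138842 to 31056066 in round spermatids, 2036237 to 2552454 in liver, 1338149 to 4055537 in eWAT and 369772 to 2749920 in gastrocnemius. Genes on MT took 43.5 to 84.3% of counts in sperm, 22.8 to 26.9% in morula and 1.96 to 2.38% in round spermatids. In liver they took 21.7 to 27%, in eWAT 15.1 to 18.2% and in gastrocnemius 29.8 to 45.5%. The markers of the labelled tissue were detected in each: all 8 sperm and spermatid markers in sperm and round spermatids, all 6 of morula, and all 5 each of liver, fat cells and skeletal muscle. Sperm libraries also held leukocyte markers (4 of 4 detected), summing to 256 to 791 CPM (counts per 1000000 counts of a library) on HFD and 1549 to 3897 on LFD, and epididymal epithelium markers at 1607 to 2643 and 2514 to 23750 CPM. In eWAT, sperm and spermatid markers reached 71.5 CPM and epididymal markers 242 CPM. Sperm, morula and round spermatids were made with the Nextera kit, sperm sequenced single-ended and the others paired-ended, and liver, eWAT and gastrocnemius with the QuantSeq 3′ kit, single-ended. Kit, layout and tissue cannot be told apart across these sets, so levels were not tested across them.

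mt-Td, mt-Tk, mt-Tg and mt-Th had no count in any library of the 4 single-ended tables, sperm, liver, eWAT and gastrocnemius, whereas all 8 members had counts in morula. Levels are given as mtCPM, the counts on a gene per 1000000 counts on genes of MT, unless CPM, the same over all counts of a library, is named. With 13534992 counts on MT in the 6 sperm libraries together, 0 allows at most 0.222 mtCPM (3 counts over the group), and in liver, eWAT and gastrocnemius 0.917, 1.01 and 0.853. In round spermatids mt-Td and mt-Tk were at 0, which allows 0.927 over the group, and mt-Tg had 0 to 5 and mt-Th 0 to 8 counts a library. mt-Td was also nearly absent from morula, with 0, 1 and 0 counts in the libraries MH5, MH6 and MH7 of HFD and 0, 2 and 5 in ML1, ML2 and ML3 of LFD.

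The mRNA genes beside these members showed the same gaps. mt-Co2, a subunit of cytochrome c oxidase that flanks both mt-Td and mt-Tk, had 0 counts in all libraries of sperm, liver, eWAT and gastrocnemius but 386 to 943 a library in morula and 200 to 308 in round spermatids. mt-Atp8, downstream of mt-Tk, was likewise at 0 in those 4 tissues, and mt-Co3, upstream of mt-Tg, had at most 1 count a library there. Since respiring tissues express these genes, their 0 is a listed value and was not read as absence. This stretch has a near-identical nuclear copy: 7 annotated genes in a row on the minus strand of chromosome 1, from 24611535 to 24616197 (GRCm38), matched mt-Co1, mt-Co2, mt-Atp6, mt-Co3, mt-Nd3, mt-Nd4l and mt-Nd4 between mtDNA positions 6390 and 11042 with 99.71 to 100% identity. The gaps between the copies that correspond to mt-Td, mt-Tk and mt-Tg were as long as on mtDNA, 140, 233 and 69 bases, and that of mt-Tr was 74 against 73 bases. The copies of mt-Co2, Gm28661, and of mt-Nd4l, Gm10222, had 22 to 65 and 32 to 101 counts in the sperm libraries, in which both mitochondrial genes had 0. Counts of mt-Td, mt-Tk, mt-Tg and mt-Tr are therefore uncertain where reads could map to both places. mt-Th, mt-Ts2, mt-Tl2 and mt-Tt lie outside the copied stretch. mt-Th was at 0 in single-ended tables all the same, between mt-Nd4 with 82636 counts over the 6 sperm libraries and mt-Ts2 with 32. The part of mapping, read length and strand in these gaps was not tested.

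**Figure D1:**
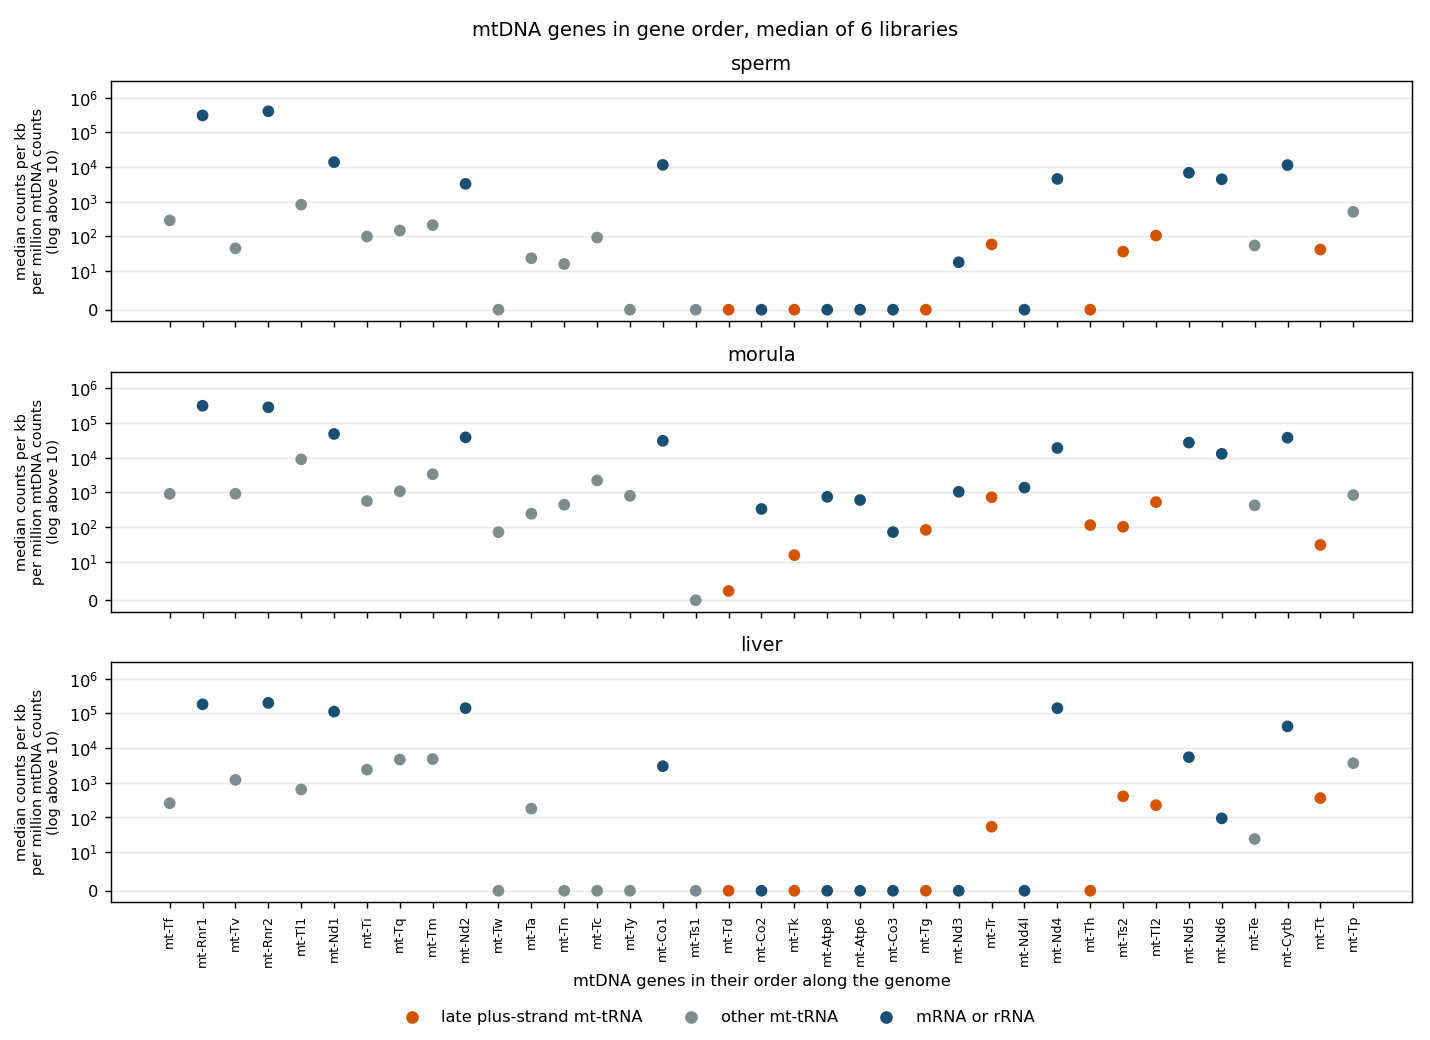
mtDNA genes in their order along the genome (x axis) against the median mtCPM per kb over 6 libraries (y axis, log scale above 10, linear below) in sperm, morula and liver. Orange points are the 8 members, grey the other mt-tRNA genes and blue the mRNA and rRNA genes. In sperm and liver the points from mt-Ts1 to mt-Tg lie at 0, as does mt-Th, while in morula 7 of the 8 members lie between 15.4 and 719 and mt-Td at 2.39.

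Per length, the members stayed below the mRNA genes beside them in morula with 1 exception. The median level of mt-Tr there was 719 mtCPM per kb against 1033 for mt-Nd3 and 1359 for mt-Nd4l, which code for subunits of complex I. mt-Tl2 stood at 520, mt-Th at 113 and mt-Ts2 at 101, beside mt-Nd4 at 18791 and mt-Nd5 at 26958. mt-Tt had 30.4 beside mt-Cytb at 37355 and mt-Tk 15.4 beside mt-Co2 at 330.0. The exception was mt-Tg, at 82.3 against 71.0 for mt-Co3 and 1033 for mt-Nd3. In sperm the order by length was mt-Tl2 at 106, mt-Tr at 58.8, mt-Tt at 41.9 and mt-Ts2 at 36.5. Lengths were not used for the QuantSeq tables, whose reads mark 3′ ends.

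The 8 members together made up a small share of all mt-tRNA counts in each tissue, with medians of 9.75% in sperm, 6.86% in morula, 7.40% in round spermatids, 5.59% in liver, 10.6% in eWAT and 5.88% in gastrocnemius. Their sum in mtCPM was highest in eWAT (64.6 to 142, median 111) and morula (47.4 to 204, median 108), followed by liver (57.3 to 82.1, median 75.1) and gastrocnemius (28.9 to 97.7, median 72.3). Round spermatids (17.6 to 50.8, median 34.9) and sperm (9.51 to 39.5, median 17.6) were at the lower end. Each tissue's range overlapped that of the next in this order. In bulk samples, fewer cells of a type and less RNA per cell cannot be told apart.

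The leading member differed between tissues. mt-Tl2 held the most member counts in sperm (90 of 226), round spermatids (30 of 103), eWAT (166 of 317) and gastrocnemius (108 of 250), mt-Tr in morula (834 of 2089) and mt-Tt in liver (89 of 239). mt-Tr had 33.0 to 57.8 mtCPM in morula (median 48.9) and at most 11.1 in any library of another tissue. In mtCPM its range in morula overlapped that of no other tissue. Relative to counts on the mtDNA-encoded mRNA genes the ranges of morula and sperm overlapped. The LFD sperm library l4 had 11 counts on mt-Tr beside 73577 on mRNA genes, and ML1 had 91 beside 658848. mt-Tt was ordered the other way: eWAT (23.6 to 45.6, median 43.8), gastrocnemius (10.5 to 48.4, median 25.5) and liver (14.8 to 47.1, median 24.2) lay above sperm (1.19 to 8.09, median 2.81), morula (0 to 5.53, median 2.04) and round spermatids (0 to 10.6, median 2.03). Only 1 library of round spermatids (10.6) reached the lowest gastrocnemius library (10.5), and the higher and lower tissues are also those of the QuantSeq and the Nextera kit. Relative to counts on the mRNA genes this split of mt-Tt did not hold. There l4 of sperm had 9 counts beside 73577, and a gastrocnemius library had 4 beside 281342. A 36-base stretch of mt-Tt matched the nuclear gene Gm43841 with 97.2% identity, so its counts are uncertain too.

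mt-Ts2 was highest in liver (12.9 to 37.2, median 24), followed by gastrocnemius (3.89 to 23.8, median 8.59), eWAT (5.06 to 12.9, median 8.52), round spermatids (4.05 to 7.30, median 6.22), morula (0.724 to 12.1, median 5.95) and sperm (0.688 to 8.98, median 2.15). mt-Tl2, whose gene follows it directly, had another order, with eWAT first (8.61 to 85.7, median 51.1), then morula (9.05 to 97.5, median 37.0), gastrocnemius (10.5 to 39.1, median 30.7), liver (7.85 to 21.8, median 16.1), round spermatids (3.17 to 19.5, median 9.06) and sperm (2.75 to 12.6, median 7.5). For both genes every tissue overlapped the next in the order. Both orders are in mtCPM, so they too depend on the rRNA share of counts on MT. mt-Tg had 0 to 10.2 mtCPM (median 5.77) in round spermatids and 2.17 to 10.7 (median 5.60) in morula, and mt-Th 0 to 12.7 (median 6.10) and 1.81 to 19.4 (median 7.58), with overlap for both.

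**Figure D2:**
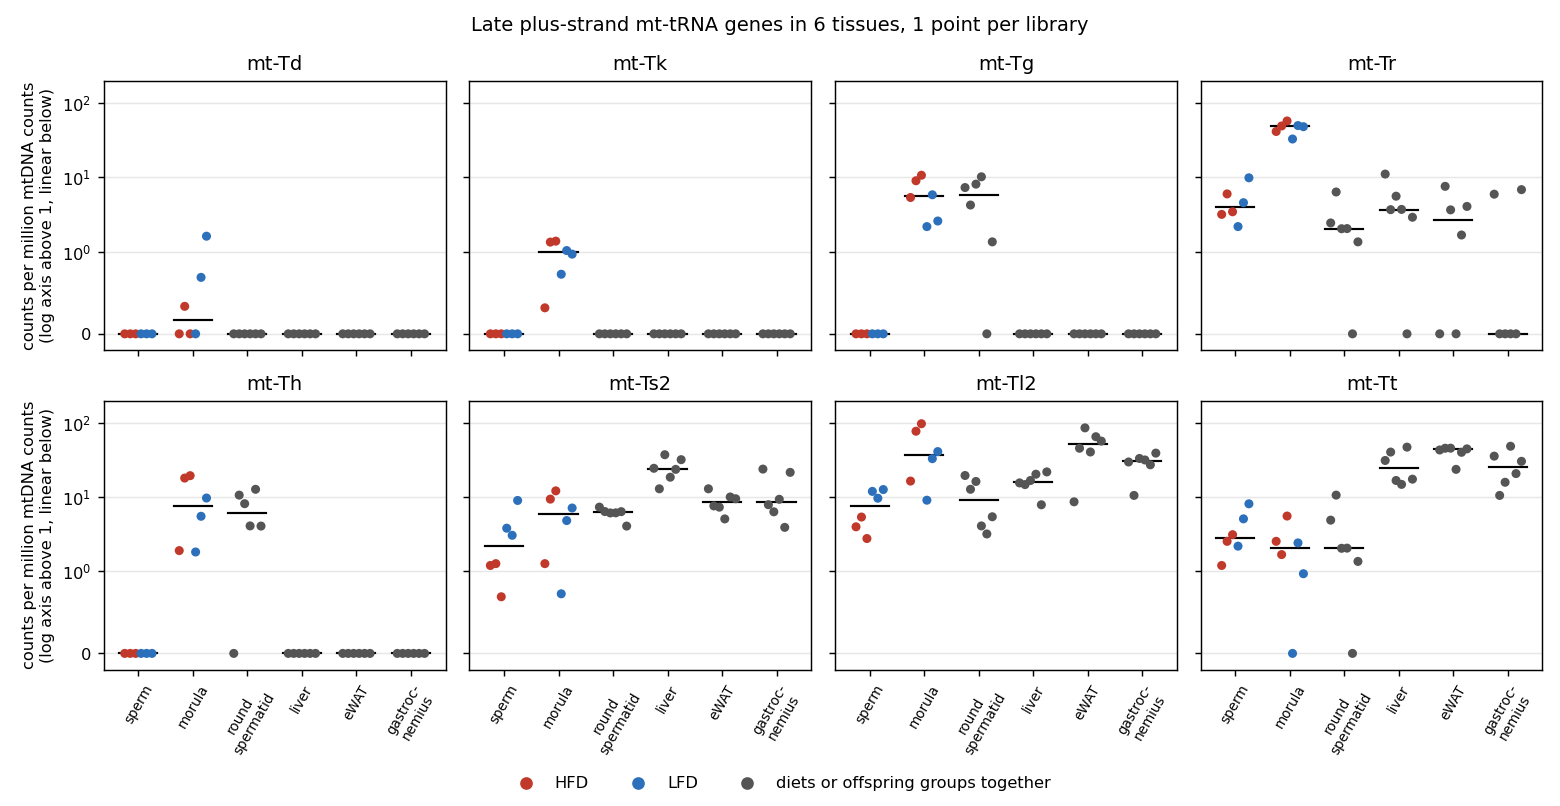
mtCPM (y axis, log scale above 1, linear below) of each of the 8 genes in 6 tissues (x axis), 1 point per library with the median as a line, red for HFD, blue for LFD and grey where diets or offspring groups are together. mt-Tr lies between 33.0 and 57.8 in morula and at or below 11.1 elsewhere, and mt-Td, mt-Tk, mt-Tg and mt-Th lie at 0 in sperm, liver, eWAT and gastrocnemius.

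Levels were tested only between tissues that share the named kit and layout, by 24 two-sided exact permutation tests over libraries (6 against 6, Benjamini-Hochberg adjusted over the 24), and 4 passed 0.05. The methods call the round spermatid libraries Ribo-minus and do not say so for morula, and the column names of these tissues differ in form. The rRNA genes took 81.1 to 86.2% of counts on MT in round spermatids and 72.3 to 76.0% in morula. Tissue and library preparation cannot be told apart in this pair. mt-Tr was higher in morula than in round spermatids, 46.7 ± 8.47 against 2.37 ± 2.13 mtCPM (SD, n = 6 each), a 19.7-fold difference of means with no overlap, resting on 7 counts in the 6 round spermatid libraries (exact p = 0.00216, adjusted p = 0.0260, exact permutation test). The fold of mt-Tr was 232 in CPM and 12.8 relative to counts on the 13 mtDNA-encoded mRNA genes. mt-Tr is the member of the copied stretch with the most counts, and the part of the nuclear copy in this difference was not tested. The sum of members was 117 ± 59.0 in morula and 33.8 ± 13.1 in round spermatids, 3.46-fold higher (adjusted p = 0.0260, exact permutation test). The fold of the sum was 41.1 in CPM, and it did not pass relative to counts on the mRNA genes, where the fold was 2.19 (adjusted p = 0.0935, exact permutation test). mt-Ts2 was 2.84-fold higher in liver, 24.7 ± 8.81, than in eWAT, 8.72 ± 2.71 (adjusted p = 0.0260, exact permutation test). This rests on 82 counts in liver and 25 in eWAT, where a library had 2 to 7. mt-Tk passed the same test between morula (0.960 ± 0.399) and round spermatids (all at 0), but the 0 there allows up to 0.927 over the group, close to the morula mean, so no fold is given.

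In mtCPM mt-Tl2 missed the threshold in each pair. It was 50.4 ± 26 in eWAT against 16.2 ± 4.91 in liver (adjusted p = 0.0623, exact permutation test with n = 6 a tissue), 28.5 ± 9.70 in gastrocnemius against liver (adjusted p = 0.0668), and 45.7 ± 34.8 in morula against 10.2 ± 6.91 in round spermatids (adjusted p = 0.0668). In eWAT the library of the lowest total, 1338149 counts, had 2 counts on mt-Tl2, the lowest level of that tissue, 8.61. In CPM, 10 of the 24 tests passed, 7 of them between morula and round spermatids, whose shares of counts on MT differ as given above. mt-Tl2 was among them in 2 pairs, 2.65-fold higher in gastrocnemius than in liver (adjusted p = 0.0173, exact permutation test) and 53.5-fold higher in morula than in round spermatids (adjusted p = 0.00649, exact permutation test).

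In morula the 6 libraries were spread far apart on some members and hardly on others. mt-Tl2 had 52, 231 and 282 counts in MH5, MH6 and MH7 and 25, 96 and 127 in ML1, ML2 and ML3, that is 16.4, 77.2 and 97.5 mtCPM on HFD and 9.05, 32.9 and 41.0 on LFD. mt-Th had 1.89, 18 and 19.4 on HFD and 1.81, 5.49 and 9.68 on LFD. mt-Ts2 had 1.26, 9.36 and 12.1 on HFD and 0.724, 4.81 and 7.10 on LFD. All 3 genes of this adjacent run placed the libraries in the same order, MH7, MH6, ML3, ML2, MH5 and ML1, so that within each diet 1 library was low, and the diets overlapped. Within each diet the level rose with the number in the column name. No label says what this number marks, and its part was not tested.

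The highest library exceeded the lowest 10.8-fold for mt-Tl2, 10.7-fold for mt-Th and 16.7-fold for mt-Ts2. mt-Tr, with 834 counts in all beside 813 for mt-Tl2, had 41.7, 49.5 and 57.8 on HFD and 33.0, 50.1 and 48.4 on LFD, a 1.75-fold range. Among the 2786 genes with 500 to 1500 counts over the 6 morula libraries, the median of this ratio was 1.79, and 0.287% had one as large as mt-Tl2 or larger. The 3 adjacent members made up 24.4 to 63.1% of the members' counts across the libraries, lowest in ML1 and MH5. The order of the libraries seen in this run was found in 7 of the other 13 mt-tRNA genes with at least 20 counts (mt-Ta, mt-Tc, mt-Te, mt-Tn, mt-Tp, mt-Tw and mt-Ty) and in 0.273% of all 17555 such genes. A wide spread was not particular to the run. Among these 7 genes the ratio was 113 for mt-Ta (1 count in its lowest library), 9.89 for mt-Tn and 7.89 for mt-Tc. It was 5.17 for mt-Ty, 4.96 for mt-Te and 1.91 for mt-Tp, and mt-Tw had 0 in its lowest library. Total counts, 11471251 to 12153141, and the share of counts on MT, 22.8 to 26.9%, differed little between these libraries. Counts on nuclear genes under 100 bases were highest in MH5, at 6984 CPM, and lowest in MH6, at 5252 CPM. Their part in the spread was not tested.

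**Figure D3:**
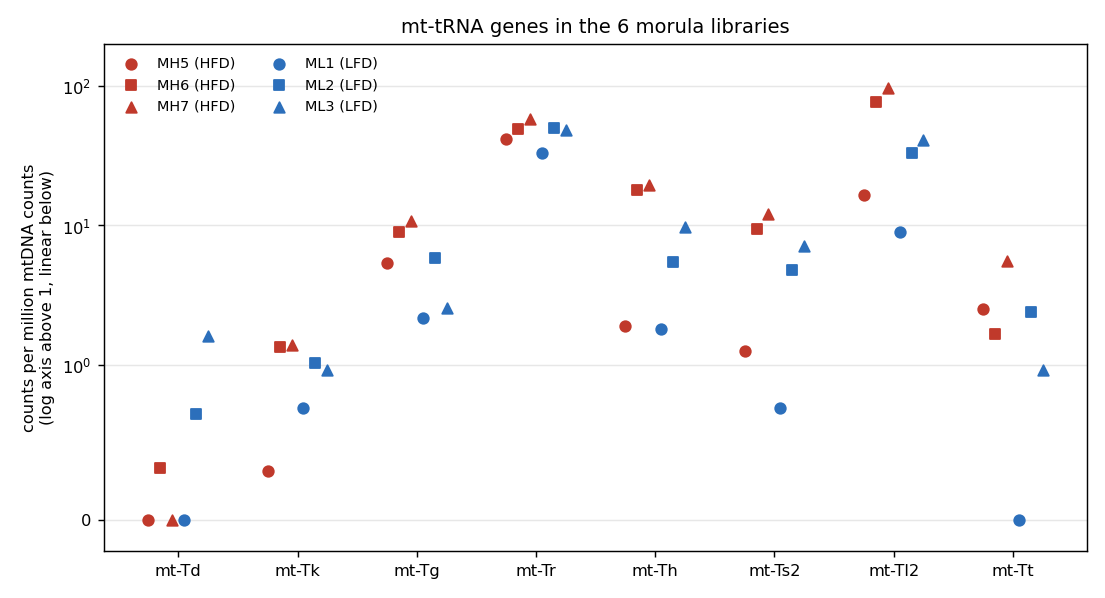
mtCPM (y axis, log scale above 1, linear below) of the 8 genes (x axis) in the 6 morula libraries, red for fathers on HFD and blue for LFD, with a marker shape per library. For mt-Th, mt-Ts2 and mt-Tl2 the circles MH5 and ML1 lie below all other libraries, whereas the mt-Tr points lie within 33.0 to 57.8.

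No member passed the test of the father's diet in morula. Of the 8, 5 passed the filter on low counts, and edgeR's quasi-likelihood test gave log2 fold changes (HFD over LFD) of 1.21 for mt-Tg, 1.12 for mt-Tl2, 1.11 for mt-Th, 0.74 for mt-Ts2 and 0.17 for mt-Tr. Their median was 1.11 beside 0.01 over the 13447 genes tested. The smallest adjusted p of a member, 0.769 for mt-Tl2 (log2 fold change 1.12 ± 0.53 SE, n = 3 a diet), came from edgeR. By adjusted p 0 of these genes passed in edgeR, 0% of the genes tested, and 858 (6.38%) had an unadjusted p under 0.05, none of them a member. DESeq2 called 18 genes (0.134%), without mt-Tr and mt-Tl2 and with no adjusted p for the other 3, and limma-voom called 0, with 900 (6.69%) at an unadjusted p under 0.05. When all 29785 genes with a count were kept, edgeR called 63 (0.212%), mt-Tl2 among them (log2 fold change 1.11 ± 0.27 SE, adjusted p = 0.0225), so this call depends on the filter. With 1 library left out the log2 fold changes of mt-Tg ranged from 0.92 (without ML1) to 1.80 (without ML2), and those of the adjacent run were lowest without ML1 and highest without ML3, at 0.66 and 1.79 for mt-Th, 0.22 and 1.38 for mt-Ts2 and 0.67 and 1.56 for mt-Tl2. That of mt-Tr was -0.05 without ML1. None of these passed. No member's diets were separate in morula, where HFD lay above LFD without overlap for 4.61% and below for 4.93% of 17555 genes in mtCPM. These shares were 6.40% and 5.05% in CPM and 5.86% and 5.79% after TMM.

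The 3 members that failed the filter in morula had few counts. mt-Tt had 8, 5 and 16 counts on HFD and 0, 7 and 3 on LFD, mt-Tk 1, 4 and 4 against 2, 3 and 3. The sum of members was 147 ± 69.6 mtCPM on HFD and 87.7 ± 35.1 on LFD (SD, n = 3), a 1.67-fold difference (p = 0.300, two-sided exact permutation test, 20 arrangements, smallest possible p 0.1). In CPM it was 36.7 ± 15.9 and 22.1 ± 9.93 (p = 0.300, exact permutation test). These differences were within the spread between libraries. Leaving out MH5 raised the ratio to 2.12-fold in mtCPM, and leaving out MH7 lowered it to 1.35-fold.

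In sperm the direction of the diet difference turned with the scaling. mt-Tl2 had 10, 17 and 8 counts in the HFD libraries h1, h3 and h4 and 22, 19 and 14 in the LFD libraries l1, l2 and l4. In mtCPM these were 3.96, 5.36 and 2.75 on HFD and 11.9, 9.63 and 12.6 on LFD, with no overlap. mt-Ts2 had 3, 4 and 2 counts on HFD and 7, 6 and 10 on LFD, or 1.19, 1.26 and 0.688 against 3.79, 3.04 and 8.98 in mtCPM, again without overlap. Both were lower on HFD on this scale, but so were most genes: HFD lay below LFD without overlap for 54.7% in mtCPM and 46.2% in CPM of the 12988 genes with at least 20 counts over the 6 libraries, beside 2 of the 4 members with counts on either scale. A share of 2 in 4 is near these backgrounds. HFD lay above LFD for 0.154% of genes in mtCPM and 0.701% in CPM, and for no member. After TMM scaling (trimmed mean of M values, which equalizes the bulk of genes) HFD lay above LFD for 7.22% of genes and 1 member, mt-Tr, and below for 10.7% and no member.

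In mtCPM and CPM the other members with counts in sperm overlapped between diets. mt-Tr, the arginine carrier, had 8, 19 and 10 counts on HFD and 4, 9 and 11 on LFD, or 4.20 ± 1.56 against 5.54 ± 3.95 in mtCPM. mt-Tt had 3, 8 and 9 counts on HFD and 4, 10 and 9 on LFD, or 2.27 ± 0.978 against 5.11 ± 2.96. The sum of members was 9.51, 15.1 and 9.97 in mtCPM on HFD and 20, 22.3 and 39.5 on LFD, that is 11.5 ± 3.12 and 27.3 ± 10.7 (SD, n = 3). It was 2.37-fold higher on LFD with no overlap (p = 0.1, two-sided exact permutation test, the smallest that 20 arrangements can give), and 1.84-fold higher without l4. In CPM it was 9.24 ± 2.23 on HFD and 14.8 ± 2.26 on LFD, 1.6-fold higher on LFD (p = 0.1, exact permutation test). Scaled to 1000000 nuclear counts the direction reversed, 47.5 ± 8.71 on HFD and 35.3 ± 5.23 on LFD, with overlap (p = 0.200, exact permutation test). Genes on MT took 78.1 to 84.3% of counts on HFD and 43.5 to 64.7% on LFD, beside the leukocyte and epididymal marker values given above. Their part in these differences was not tested.

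**Figure D4:**
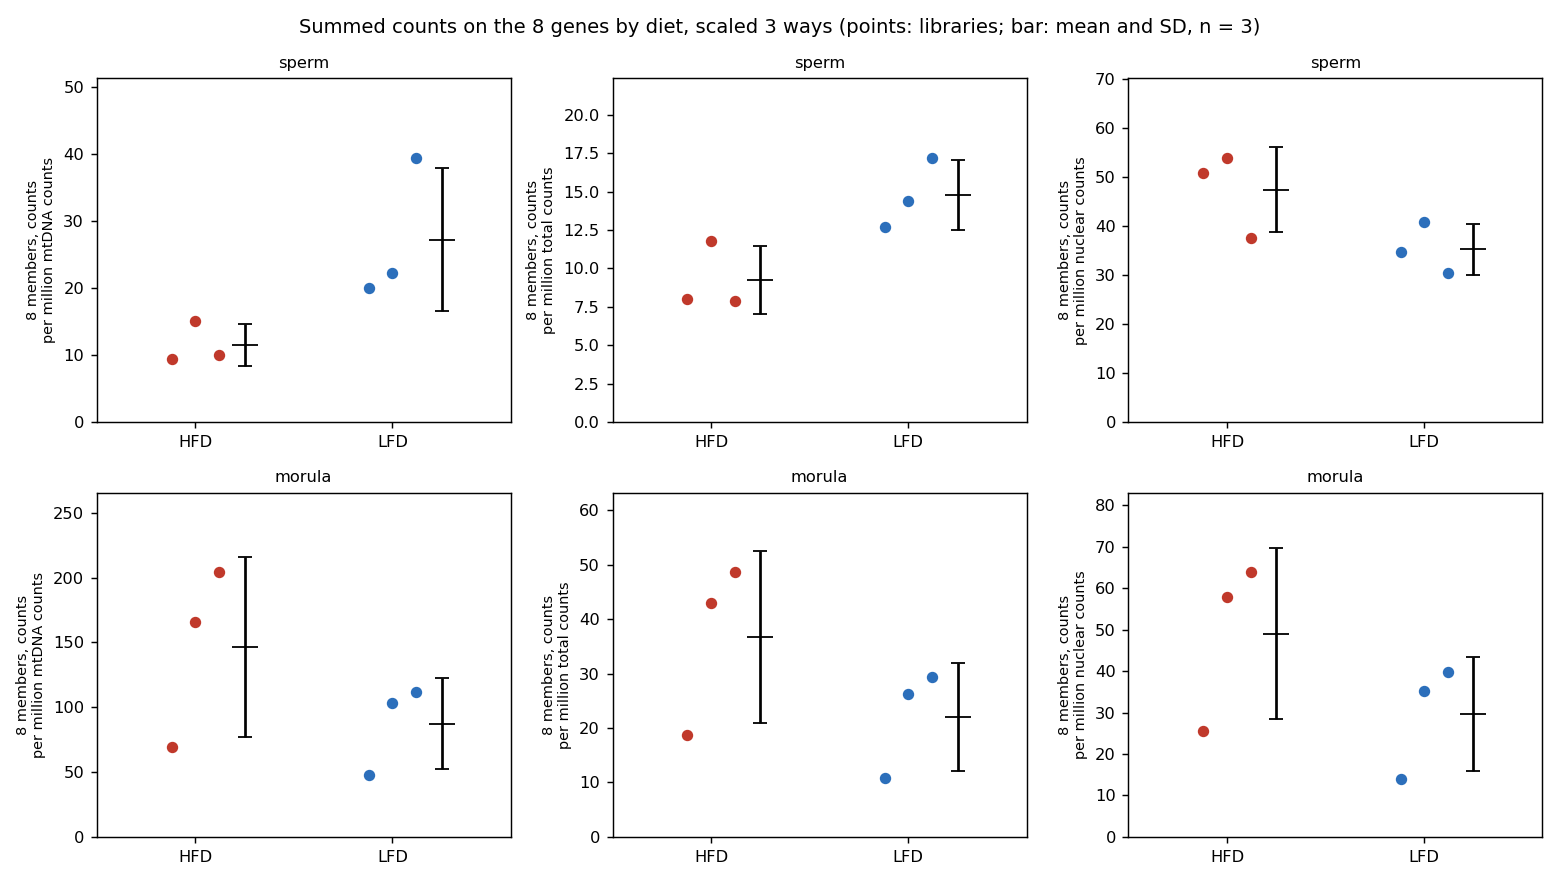
Summed counts on the 8 genes by diet (x axis) in sperm and morula, scaled to mtDNA counts (mtCPM), total counts (CPM) and nuclear counts (y axes, from 0). Points are libraries and bars the mean and SD of 3. In sperm the HFD libraries lie below LFD on the first pair of scales, with means of 11.5 and 27.3 in mtCPM, and overlap it on the nuclear scale, with means of 47.5 and 35.3, whereas in morula the diets overlap on each.

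In the model across all genes only mt-Tl2 passed the filter in sperm. With TMM scaling its log2 fold change (HFD over LFD) was 0.64 ± 0.83 SE (adjusted p = 0.798, edgeR's quasi-likelihood test, n = 3 a diet), whereas scaling to library totals gave -0.98 (adjusted p = 0.404) and to counts on MT -1.48 (adjusted p = 0.235). With all genes kept and TMM, edgeR gave 1.80 for mt-Tr, 1.00 for mt-Tt, 0.46 for mt-Tl2 and -0.12 for mt-Ts2, with adjusted p of 0.672 to 0.975, and called 41 of 26903 genes (0.152%), no member among them. By adjusted p 0 of 8643 genes passed in edgeR with TMM, 0%, and 1122 (13%) had an unadjusted p under 0.05, mt-Tl2 not among them. DESeq2 called 295 genes (3.41%) but gave no adjusted p for mt-Tl2 (unadjusted p = 0.352), and limma-voom called 0, with 1228 (14.2%) at an unadjusted p under 0.05. With library totals edgeR called 3266 genes (37.8%) and with counts on MT 4980 (57.6%), mt-Tl2 not among them. The median of all genes was -0.07 with TMM, -1.82 with library totals and -2.42 with counts on MT, so mt-Tl2 lay above the median of all genes by each scaling.

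The log2 fold change of mt-Tl2 in sperm was below those of the other mitochondrial transcripts tested. With TMM the 7 other mt-tRNA genes tested had log2 fold changes of 1.29 to 2.59 (median 2.15), the 8 mtDNA-encoded mRNA genes 1.98 to 2.43 (median 2.24) and both rRNA genes 2.11 and 2.29, beside 0.64 for mt-Tl2. Scaled to counts on MT, the medians were -0.02, 0.07 and 0.02, beside -1.48. None of these genes passed in edgeR at an adjusted p under 0.05. With TMM 5 of the 7 other mt-tRNA genes, the 8 mRNA genes and 0 rRNA genes had an unadjusted p under 0.05, all higher on HFD, beside 13% of all genes. A test of mt-Tl2 against them was not run. In morula the 13 other mt-tRNA genes tested had log2 fold changes of 0.08 to 1.80 (median 0.54), with 0 called and 4 at an unadjusted p under 0.05. The 13 mRNA genes had -0.98 to 0.17 (median 0.03), with 0 called and 3 lower on HFD at an unadjusted p under 0.05. The lowest were mt-Atp6 (-0.98), mt-Co3 (-0.88) and mt-Co2 (-0.82), which lie in the copied stretch (adjusted p = 0.456 in edgeR for each).

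The log2 diet ratio of the sum of members was negative in sperm and positive in morula, in mtCPM and in CPM. In mtCPM, HFD over LFD was -1.24 in sperm and 0.74 in morula, a difference of -1.99 (p = 0.0250, two-sided exact permutation of diets within both experiments, 400 arrangements, n = 3 a group). In CPM the difference was -1.41 (p = 0.0350, exact permutation). The null of these permutations is no diet effect in either experiment, so an effect in sperm alone can give a small p. They do not test whether both effects are equal. The median of all genes differed in the same direction, at -2.42 in sperm and -0.01 in morula when scaled to counts on MT and at -1.82 and 0.03 with library totals, which are larger gaps than those of the members. Without the member with the most counts in each, mt-Tl2 in sperm and mt-Tr in morula, p was 0.0850 by the exact permutation test, and it was also above or at 0.05 without MH6 (0.0650), MH7 (0.0700) or ML1 (0.05). The sign of the sperm term depends on the scale as described, and with nuclear counts, where the log2 ratios were 0.43 and 0.73, the difference was not tested.

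The enzymes that act on these tRNAs were counted on the nuclear genome. The synthetases examined, which charge members, are encoded by 7 genes, Kars, Gars, Rars2, Hars2, Sars2, Lars2 and Tars2, of which Kars and Gars also serve the cytosol. In morula all 7 were tested and 0 passed in edgeR, with log2 fold changes (HFD over LFD) of -0.25 to 0.60, Hars2 at 0.60 ± 0.18 SE and the smallest adjusted p of 0.687. In sperm 6 were tested with TMM and 0 passed in edgeR, from -1.06 for Hars2 to 1.94 for Lars2 (smallest adjusted p 0.285). Of the 5 genes of end processing and CCA addition, Trmt10c, Hsd17b10 and 1110008L16Rik (the RNase P complex, the last its nuclease subunit), Elac2 and Trnt1, 5 were tested in morula (-0.31 to 0.01) and 4 in sperm (-1.69 for Elac2 to 0.24 for Trnt1), and edgeR called 0. With library totals in sperm 1 synthetase (Kars, -1.92, adjusted p = 0.041 in edgeR) and 2 processing genes (Elac2, -3.47, adjusted p = 0.028, and 1110008L16Rik, -2.86, adjusted p = 0.0395) passed, all lower on HFD, beside 37.8% of all genes.

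Lars2, which charges both mitochondrial leucine tRNAs, had median levels of 2821 CPM in sperm and 2456 in morula but 7.20 in round spermatids, 8.91 in liver, 14 in eWAT and 14.3 in gastrocnemius. The range in round spermatids reached 190 CPM in 1 library. In sperm Lars2 had 65857 counts, beside 29 (Sars2) to 319 (Kars) for the other synthetases examined. In morula it had 169032, beside 649 (Sars2) to 7501 (Gars). With library totals its log2 fold change in sperm (HFD over LFD) was 0.24, beside 0.60 for mt-Rnr1 and 0.44 for mt-Rnr2. The other synthetases tested had -2.64 (Hars2) to -0.11 (Tars2). Whether all counts on Lars2 come from its mRNA was not tested. Trnt1, the CCA-adding enzyme, had medians of 109 CPM in morula and 66.6 in round spermatids and 6.08 to 10.9 in the other 4 tissues. Levels across kits are set side by side with no test.

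Across the 6 tissue medians, the genes whose level in log2(CPM + 0.5) followed the summed members most closely were Hes1 (r = 0.989), Bcl7a (0.986), Akap17b (0.984), Trappc1 (0.982) and Gm13340 (0.973), out of 16877 genes compared. Of the genes on MT the closest was mt-Cytb (r = 0.960). These are Pearson correlations over 6 points that share kits and libraries, given as a description, and in all of them round spermatids held the lowest level.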

How the data were processed

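Gene count tables of 6 tissues (36 libraries) were used. Per the study's methods, the authors ran BBDuk for trimming, STAR for alignment against GRCm38 and featureCounts for counting, and deposited raw counts per gene. Versions, the strand setting and the handling of reads with several or overlapping matches are not given in the sources used here. Columns were tied to a group only, and numbers in column names are not the numbers in the titles. Sequences and nuclear matches came from GENCODE M21 transcripts, so the spaces between nuclear copies were compared by length alone. Symbols matched 51633 to 55141 IDs a table.

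Counts were scaled to 1000000 of all counts in a library (CPM), of counts on MT (mtCPM) or of nuclear counts. Diet was tested in sperm and morula with edgeR 4.0.16 (quasi-likelihood test, TMM, filterByExpr with a minimum count of 10, Benjamini-Hochberg over all genes tested, two-sided), in R 4.3.3. Standard errors were taken from the fold change and its F statistic. Sums and tissue pairs were tested by exact permutation over libraries. DESeq2 1.42.0, limma 3.58.1, other scalings, no filter, other denominators and leaving out libraries were the alternatives. The fits were tested on simulated counts. A count of 0 was taken to allow 3 counts, and such limits cover counting error only. Libraries of a group differed by more than sampling noise in every pair (smallest chi-square per degree of freedom 3.50). The methods give 3 mice per diet for round spermatids. Labels do not say whether libraries of the other tissues came from separate animals, so p-values measure the spread between these libraries, which may be technical.

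The members and lists were chosen with earlier results of these data known. Named genes were the 8 members, their neighbours, the cognate synthetases, the processing genes and the 5 genes of most similar tissue medians, with 1 listed gene not reported here. Members were counted where reads mapped, so that a nuclear copy, an antisense neighbour or a read spanning abutting genes can change their counts.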

Additional observations from a re-analysis of the deposited data

Results flagged for a closer look

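In round spermatids, 1 of 6 libraries, that of the highest total (31056066 counts), stood below the others on mt-Ts2 in mtCPM, at 4.05 (3 counts) against 6.09 to 7.30. The other libraries had 3 or 4 counts, and this library had the most counts on MT, 739984 against 411089 to 630814. At so few counts the source of the gap was not tested. In eWAT, a library of 3512177 counts stood below the others on mt-Tt, at 23.6 (14 counts) against 40.1 to 45.6. This library also stood apart on other mitochondrial genes, with rRNA at 26.4% of mtDNA counts against 42.3 to 57.8% and the other mt-tRNA genes at 558 mtCPM against 815 to 1159. These were 2 of 22 groups of 6 examined for a library set apart, of which chance gives about 1 in 20.

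The log2 diet ratios of the summed members in mtCPM lay -1.99 apart, sperm minus morula (p = 0.0250, exact permutation of diets within both experiments, n = 3 a group). An effect in sperm alone can give such a p, and whether both effects are equal was not tested. All 3 HFD libraries lay below all 3 LFD libraries in sperm, and in morula the diets overlapped. The median of all genes was -2.42 in sperm and -0.01 in morula when scaled to counts on MT, and relative to nuclear counts the log2 ratios of the sum were 0.43 and 0.73. The experiments also differ in read layout and depth, and the part of these was not tested.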

How the results depend on the processing

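Under the alternatives run, 167 values stayed on their side of the threshold, in their direction or close to their size. These include values that did not pass under either setting. Another 9 reversed, 5 no longer passed, 3 passed only under the alternative, and 4 counts of calls moved. In sperm, the summed members in CPM reversed from a log2 ratio of -0.68 to 0.43 relative to nuclear counts, and mt-Tl2 from 0.64 with TMM to -0.98 with library totals and -1.48 with counts on MT, in fits with and without the filter. Leaving out each library in turn gave 0.37 to 0.98 for mt-Tl2 in sperm and -1.49 to -0.88 for the sum in mtCPM (-0.89 to -0.55 in CPM). In morula the sum ranged from 0.43 to 1.08 (0.40 to 1.05 in CPM), and mt-Tr from -0.05, without ML1, to 0.29. With all genes kept, 1 member was called in morula in place of 0 (mt-Tl2), by TMM and, in settings chosen after seeing the data, by library totals and by counts on MT. The cause was not tested.

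The difference between sperm and morula ranged from -2.32 to -1.62 when libraries were left out (p of 0.0100 to 0.0700, exact permutation), and it was -2.23 (p = 0.0850, exact permutation) without the leading members. Of the 24 tissue tests, 10 passed in CPM in place of 4, 3 relative to mtDNA-encoded mRNA counts, and 4 without the gastrocnemius library of the lowest total (369772 counts, a setting chosen after seeing the data). The sums reversed in CPM in the 3 pairs of liver, eWAT and gastrocnemius, to differences of 0.706 (liver minus eWAT, adjusted p = 0.818), -8.24 (liver minus gastrocnemius, 0.232) and -8.94 (eWAT minus gastrocnemius, 0.226), by exact permutation, n = 6 a tissue.

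The numbers in the sperm column names are shared by only 2 pairs, h1 with l1 and h4 with l4, and no label says that they mark a shared animal or day. With the number as a replicate block edgeR called 2 genes in place of 0, and mt-Tl2 had a log2 fold change of 0.78 (adjusted p = 0.981). No paired analysis was possible because the columns share no number in morula.

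Depth limits the members: 24 to 48 counts in all in a sperm library and 13 to 24 in one of round spermatids.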
